A study of Mus musculus with 4 samples.

Results

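The CD28 family of costimulatory genes was followed across the immune cells of normal mouse skin and of 2323 skin tumors. Its members were taken as a fixed list of 6 genes out of 31053 in the count tables: the T cell receptors Cd28, Ctla4 and Icos, the shared ligands Cd80 and Cd86, and Icosl. All 6 were present in all 4 libraries. Each library held CD45+ cells sorted from tissue and read by droplet single-cell RNA sequencing from the 3′ ends of transcripts. The 2 control libraries came from the uninoculated skin of C57/BL6 mice. The 2 tumor libraries came from skin tumors that grew for about 2 weeks after 200000 cells of the 2323 line were placed in the flank of C57/BL6 mice of 8 to 10 weeks, of either sex, and were taken at 100 to 200 mm3. The 2323 line is a single line, made from a graft whose alleles include K14rtTA, tetOCre and P53-/-. The host mice carried none of these alleles, so sorted immune cells were C57/BL6 in both groups. Control skin was whole skin with its epidermis, and a tumor is a different tissue, so tissue and tumor cannot be told apart.

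A T cell needs a second signal besides its antigen receptor, and CD28 gives it when it binds CD80 or CD86 on an antigen-presenting cell. CTLA-4 binds the same pair of ligands more tightly, is held largely inside the cell, and can strip the ligands from the partner cell. It is abundant in regulatory T cells (Treg). ICOS appears after activation, is held by group 2 innate lymphoid cells (ILC2) too, and has a ligand of its own, ICOSL. CD86 is the ligand that resting dendritic cells and macrophages already carry, whereas CD80 is usually gained on activation.

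Levels are given as unique molecular identifiers (UMIs) of a gene per 10000 UMIs of all genes, summed over the cells of 1 type in 1 library. Cell types were set by marker gates, rules on marker genes that include none of the 6 members. Values are written for control replicates 1 and 2 and then for tumor replicates 1 and 2. Tumor and control were compared by edgeR's quasi-likelihood test on summed counts, with p-values adjusted over all genes tested in that gate by the method of Benjamini and Hochberg, and called at an adjusted p under 0.05. With 2 libraries a group the exact permutation test of a single value cannot reach that threshold, so no such test was used. Where values of the groups are said not to overlap, or to be lower or higher in 2 of 2 libraries, this is a description and not a test. It is given without the share of all genes that do not overlap, so it lends no weight to a change. Nothing in the labels says whether the replicates came from separate mice, so p-values measure the spread between these libraries.

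The receptors form 1 block on chromosome 1. On the GRCm38 build, Cd28 (ENSMUSG00000026012) lay at chr1:60716800-60773359, Ctla4 (ENSMUSG00000026011) at chr1:60887000-60915832 and Icos (ENSMUSG00000026009) at chr1:60977927-61000320, all on the plus strand and 113.6 and 62.1 kb apart. Cd86 (ENSMUSG00000022901) at chr16:36603869-36666081 on the minus strand and Cd80 (ENSMUSG00000075122) at chr16:38455561-38496335 on the plus strand share a chromosome but are 1789.5 kb apart. Icosl (ENSMUSG00000000732) stood alone at chr10:78069302-78083913 on the plus strand. In the annotation used for these coordinates Ctla4 overlapped the pseudogene Rpl18-ps1 and Icos overlapped Gm37039, both on the same strand. Reads could be split or lost if the reference used for counting held both genes of a pair, which was not checked.

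Promoters were at hand for 3 of the 6 members, and each of these 3 had a higher level in tumors in at least 1 gate, so all 3 are shown. They run 5′ to 3′ on the gene's strand from 250 bases before to 50 bases after the start of the RefSeq transcript (GRCm38.p6). Capitals mark the letters GGAAA on either strand, the core bound by NFAT, or TGANTCA on either strand, a loose form of the site bound by AP-1. NFAT and AP-1 both act downstream of T cell activation. Since TGANTCA allows any middle base, a match need not be a site for AP-1.
Ctla4, chr1:60908775-60909074: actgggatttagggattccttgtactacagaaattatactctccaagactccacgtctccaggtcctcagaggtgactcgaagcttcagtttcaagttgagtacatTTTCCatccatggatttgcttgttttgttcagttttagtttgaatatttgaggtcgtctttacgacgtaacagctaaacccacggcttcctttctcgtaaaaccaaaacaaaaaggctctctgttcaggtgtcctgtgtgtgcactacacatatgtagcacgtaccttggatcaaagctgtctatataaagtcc
Icosl, chr10:78069118-78069417: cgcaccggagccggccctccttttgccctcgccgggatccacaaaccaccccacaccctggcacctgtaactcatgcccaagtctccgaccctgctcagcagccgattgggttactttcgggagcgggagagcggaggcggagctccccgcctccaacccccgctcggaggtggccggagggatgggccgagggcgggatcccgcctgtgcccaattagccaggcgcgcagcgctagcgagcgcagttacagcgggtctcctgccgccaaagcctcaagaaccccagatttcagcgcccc
Cd80, chr16:38458683-38458982: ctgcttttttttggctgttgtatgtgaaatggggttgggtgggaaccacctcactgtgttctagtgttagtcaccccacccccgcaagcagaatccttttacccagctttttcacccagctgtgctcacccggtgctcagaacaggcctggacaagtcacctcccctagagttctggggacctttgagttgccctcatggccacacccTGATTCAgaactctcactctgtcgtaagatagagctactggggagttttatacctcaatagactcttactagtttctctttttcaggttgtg
The Ctla4 window held 1 GGAAA and the Cd80 window 1 TGANTCA, and the Icosl window held neither. GGAAA occurred in 61.3% and TGANTCA in 7.81% of the 32851 windows of the same length, so the first is common in any promoter. A match describes letters only.

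The libraries held 2258 to 5176 cells and 34893543 to 73904272 UMIs. After filters 12848 cells were left, with a median of 10610 to 13361 UMIs a cell, and 7861 of them fell in 1 of 15 gates. Cells that carried both CD3 and MHC class II transcripts were left out of the gates, and made up 9.63% and 10.7% of control cells and 1.59% and 8.38% of tumor cells. Cell numbers differed widely: the macrophage gate held 66 and 197 control cells and 1869 and 608 tumor cells, whereas the Langerhans cell (LC) gate held 362 and 321 control cells and 1 and 5 tumor cells, and the gate for dendritic epidermal T cells (DETC) held 478 and 591 against 7 and 22. A gate was tested between groups only where every library gave 10 cells or more. This left 11 gates and no test for LC, DETC, dermal γδ T cells and mature dendritic cells (mDC).

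Gates were checked against their markers. Foxp3, which defines Treg, was at 4.89 and 4.47 in the control and 3.15 and 2.91 in the tumor Treg gate and was absent from the gates for CD4 conventional T cells and CD8 T cells by their rule. The ILC2 gate went against its name in tumors for part of its markers. Ikzf2, a Treg and T cell transcription factor, was at 4.61 and 7.41 in control but 49.8 and 35.0 in tumor cells of this gate, and the ILC2 cytokine gene Il5 was at 2.84 and 3.19 against 0.73 and 0. Of the other genes its rule used, Il1rl1 was higher in tumors, at 0.365 and 0.60 against 4.37 and 3.26, and Gata3 stood at 7.53 and 8.24 against 5.51 and 6.79 (2.34 and 2.38 in tumor Treg) and Rora at 47.2 and 46.7 against 30.1 and 34.2. The rule also used Il13, drawn in the figure of this gate, and Il7r. Their levels are not listed here, so this check covers only part of the rule. On that part it is called the ILC2 gate, not ILC2 cells.

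Icos fell in tumors in all 3 αβ T cell gates and in the ILC2 gate. In Treg, which restrain other T cells, it was 29.5 and 29.8 UMIs per 10000 in control and 12 and 13.5 in tumor libraries. In the gate for CD4 conventional T cells, set by Cd4 without any Foxp3 UMI, it was 28.3 and 28.8 against 6.31 and 6.80. In CD8 T cells, the cytotoxic lineage, it was 16.1 and 17.7 against 2.10 and 2.96. No control value overlapped a tumor value in these gates. The log2 fold change was -1.20 (SE 0.24, adjusted p = 0.0177) in Treg, -2.18 (SE 0.26, adjusted p = 0.00115) in CD4 and -2.89 (SE 0.26, adjusted p = 0.000256) in CD8 T cells. Of all genes tested, 5.15% were called in Treg (2.98% higher and 2.17% lower in tumors), 10.3% in CD4 (5.79% and 4.5%) and 10.8% in CD8 T cells (4.73% and 6.1%). The Treg call was lost without cycling cells (log2 fold change -0.95, adjusted p = 0.0606) and without either control library (-1.25 and -1.20, adjusted p = 0.157 and 0.14), at sizes close to that with all 4 libraries. In NK cells Icos was 0.868 and 0.391 against 0.325 and 0.977, which overlapped (log2 fold change -0.06, SE 0.57, adjusted p = 0.98).

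In the ILC2 gate Icos was at 26.2 and 25.9 in control and 11.1 and 8.14 in tumor libraries (log2 fold change -1.63, SE 0.33, adjusted p = 0.0100). Of all genes tested, 12.8% were called there, 6.32% higher and 6.53% lower. Without control replicate 1 the adjusted p was 0.0506 and the change -1.74. The tumor cells of this gate numbered 24 and 21 and carried Ikzf2 as given above, and the part of this change in gate content was not tested. Among cells of the gate without any CD3 or Trac UMI, an alternative chosen after seeing the data, Icos was 26.1 and 27.7 in the control and 6.94 and 8.20 in the tumor libraries, from 122, 99, 8 and 14 cells.

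**Figure D1:**
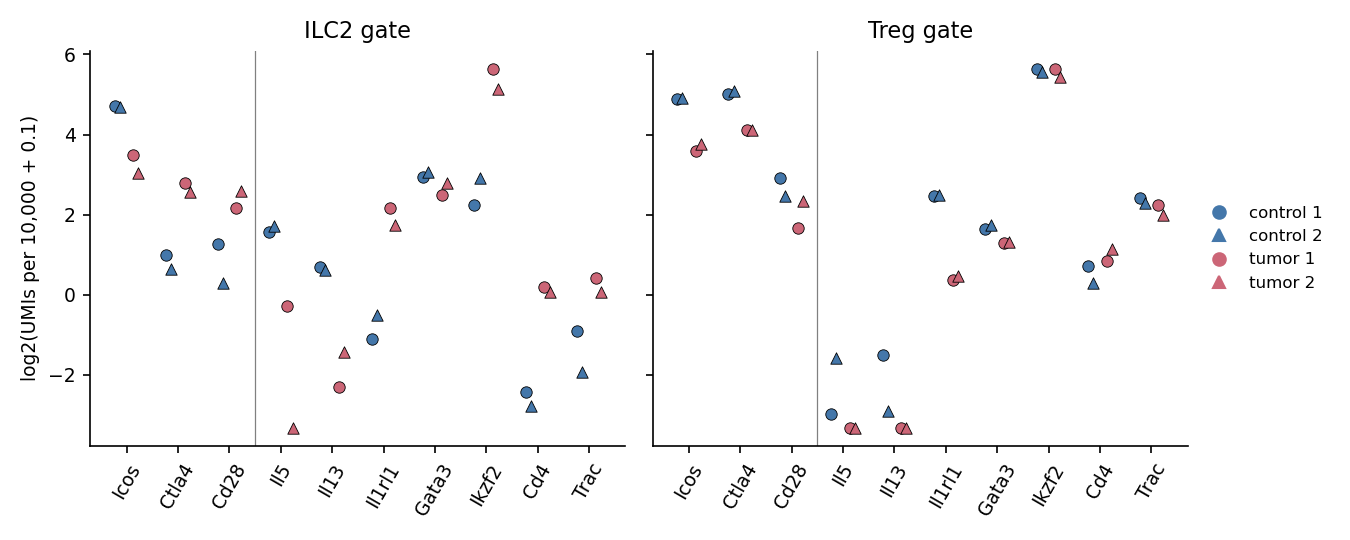
Levels, as log2 of UMIs per 10000 plus 0.1, of the 3 receptors (left of the grey line) and of marker genes in the ILC2 gate and in the Treg gate, with 1 point per library. In the ILC2 gate the tumor points of Ikzf2 stand for 49.8 and 35.0 UMIs per 10000 and the control points for 4.61 and 7.41.

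**Figure D2:**
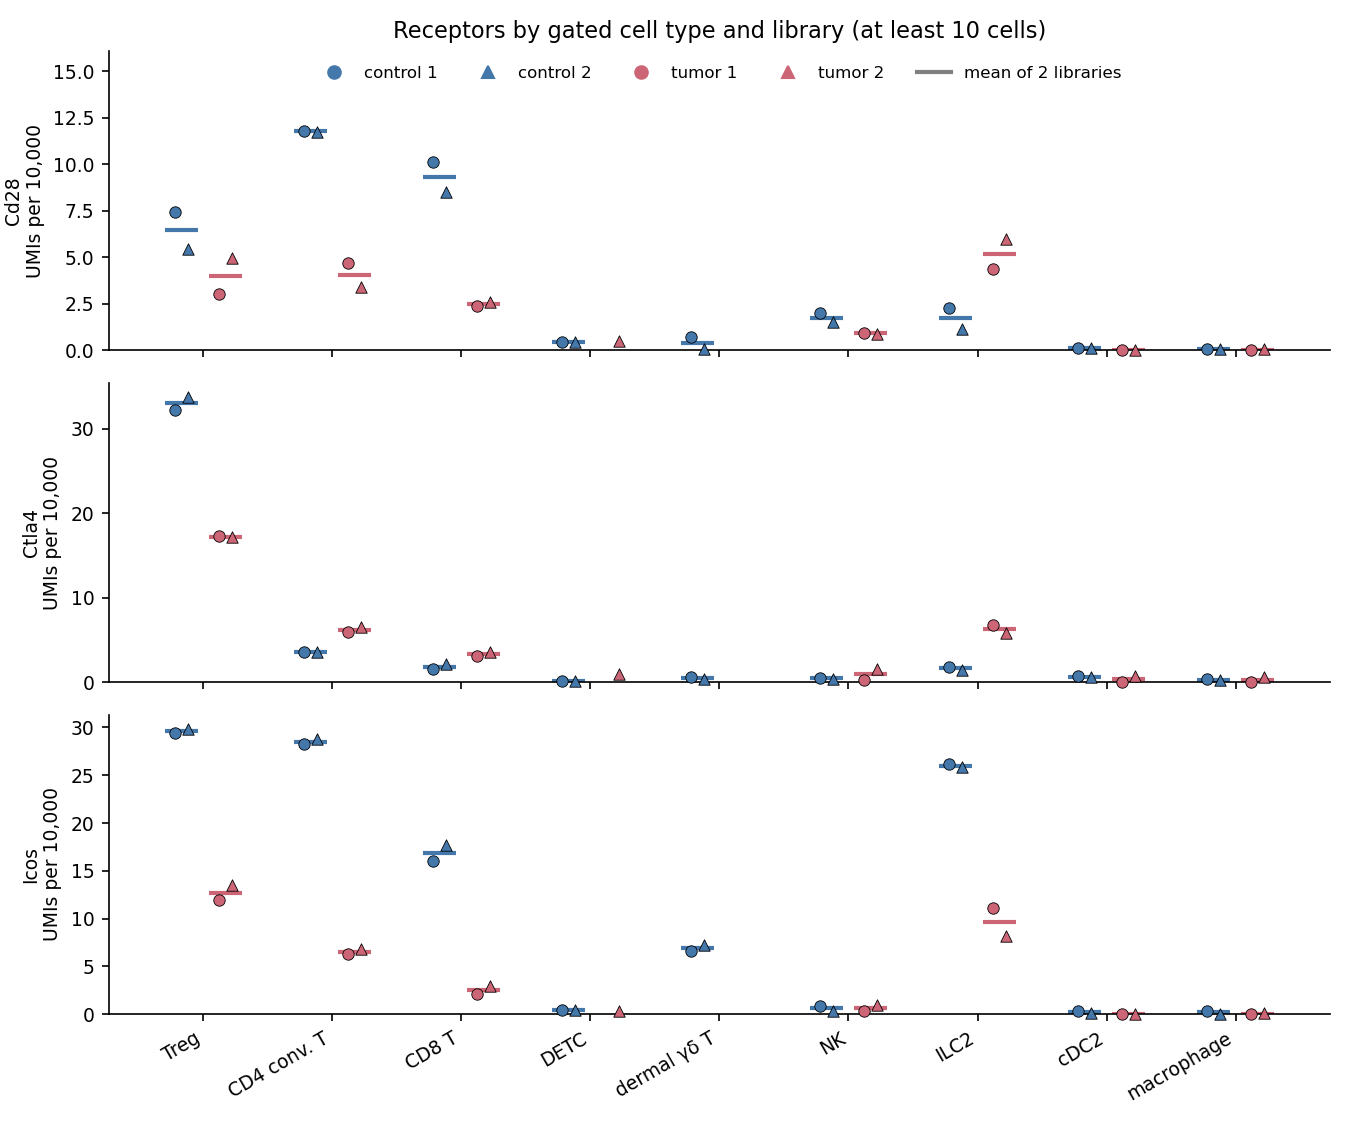
Levels of Cd28, Ctla4 and Icos by gate, in UMIs per 10000, with 1 point per library of at least 10 cells (blue, control; red, tumor; circle, replicate 1; triangle, replicate 2) and a bar at the mean of 2 libraries. Icos points of tumor libraries lie below those of control libraries in Treg, CD4 and CD8 T cells, and Ctla4 in Treg lies above every other gate.

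In control skin the order of Icos levels was Treg at 29.7 ± 0.27 (SD, n = 2), CD4 conventional T cells at 28.5 ± 0.37, the ILC2 gate at 26.0 ± 0.22, CD8 T cells at 16.9 ± 1.2 and dermal γδ T cells, the IL-17-producing cells of the dermis, at 6.92 ± 0.46. DETC, the epidermal γδ T cells, were far lower at 0.43 ± 0.014, and natural killer (NK) cells stood at 0.629 ± 0.34. Treg and CD4 T cells as neighbours differed by 0.45 on the log2 scale over the 4 libraries (SE 0.21, adjusted p = 0.258), which did not pass the test. That value averages control libraries, with means of 29.7 and 28.5, and tumor libraries, with means of 12.7 and 6.55. CD8 T cells were lower than CD4 T cells by a log2 difference of -1.06 (SE 0.16, adjusted p = 0.00591). DETC were lower than CD8 T cells by -4.91 (SE 0.36, adjusted p = 8.55e-05, 3 libraries). Of all genes, 6.76%, 3.97% and 33.8% were called in these 3 pairs of gates. In tumors the order of the first T cell gates was Treg at 12.7 ± 1.1, CD4 at 6.55 ± 0.35 and CD8 at 2.53 ± 0.61.

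Cd28 fell in CD4 and CD8 T cells. It was 11.8 and 11.7 UMIs per 10000 in control and 4.67 and 3.39 in tumor CD4 T cells, and 10.1 and 8.50 against 2.41 and 2.59 in CD8 T cells. Groups did not overlap in either gate. The log2 fold change was -1.61 (SE 0.24, adjusted p = 0.00331) in CD4 and -2.04 (SE 0.23, adjusted p = 0.000771) in CD8 T cells. In Treg, Cd28 was 7.45 and 5.45 against 3.06 and 4.98. This did not pass (log2 fold change -0.67, SE 0.28, adjusted p = 0.216), although without tumor replicate 2 it did (-1.06, adjusted p = 0.0031). In the ILC2 gate Cd28 was 2.30 and 1.13 in control and 4.37 and 5.97 in tumor libraries (log2 fold change 1.36, SE 0.37, adjusted p = 0.0365). That call was lost without control replicate 2 (0.77, adjusted p = 0.496), without tumor replicate 2 (1.02, adjusted p = 0.0768), without cycling cells (1.17, adjusted p = 0.0729) and under DESeq2 (1.26, adjusted p = 0.11). Among cells of the gate without CD3 or Trac UMIs Cd28 was 1.47 and 1.08 in control, and the tumor libraries parted, with 0 UMIs in replicate 1 (a count of 0 allows up to 0.832) and 7.78 UMIs per 10000 in replicate 2.

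Cd28 levels in control skin were highest in CD4 at 11.8 ± 0.04 and CD8 T cells at 9.3 ± 1.1, then Treg at 6.45 ± 1.4. No pair of these 3 gates passed the test over the 4 libraries, with log2 differences of -0.50 between CD8 and CD4 (adjusted p = 0.113), -0.52 between Treg and CD4 (adjusted p = 0.267) and -0.03 between Treg and CD8 (adjusted p = 0.968). Of all genes, 17.4% were called between Treg and CD8 T cells. The difference between Treg and CD4 T cells passed once tumor replicate 2 was left out (-0.87, adjusted p = 0.0255). NK cells had 2.02 and 1.51 in control and 0.963 and 0.906 in tumor libraries. DETC had 0.467 and 0.471 and were lower than CD8 T cells by a log2 difference of -3.83 (SE 0.38, adjusted p = 0.000262).

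Ctla4 had lower values in tumor Treg and higher values in tumor CD4 and CD8 T cells, none past the threshold in the test with TMM scaling. In Treg it was 32.2 and 33.7 UMIs per 10000 in control and 17.3 and 17.2 in tumor libraries. In CD4 T cells it was 3.64 and 3.63 against 5.95 and 6.52, and in CD8 T cells 1.57 and 2.16 against 3.09 and 3.56. As a description only, tumor and control libraries did not overlap in any of the 3 gates. The log2 fold change was -0.91 (SE 0.24, adjusted p = 0.0529) in Treg, 0.71 (SE 0.21, adjusted p = 0.064) in CD4 and 0.71 (SE 0.23, adjusted p = 0.0831) in CD8 T cells. The value for Treg passed under DESeq2 (-0.94, adjusted p = 0.00219) and without either tumor library (-0.90 and -0.92, adjusted p = 0.000688 and 0.00148), as it did with the replicate number as a block (-0.91, adjusted p = 0.0359) and without the filter on low counts (-0.91, adjusted p = 0.00664). With total UMIs as the only scaling all 3 passed, at -0.94 in Treg (adjusted p = 0.0488), 0.78 in CD4 (adjusted p = 0.0367) and 0.84 in CD8 T cells (adjusted p = 0.0493). The CD8 value passed without tumor replicate 1 (0.83, adjusted p = 0.00799) and without cycling cells (1.21, adjusted p = 0.0132). In CD4 cells without any Ikzf2 or Il2ra UMI the change was smaller at 0.25 (adjusted p = 0.785). Leaving out cells with either transcript took control libraries from 69 and 35 to 49 and 16 cells. It took tumor libraries from 111 and 89 to 39 and 25 cells, so most tumor cells of this gate held one of them. Ikzf2 was at 1.28 and 0.89 in control and at 7.77 and 7.0 in tumor CD4 T cells, and its part in the Ctla4 level was not tested otherwise.

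Treg had the most Ctla4 of the T cells. Over the 4 libraries it was higher in Treg than in CD4 T cells by 2.25 on the log2 scale (SE 0.30, adjusted p = 0.00164) and than in CD8 T cells by 3.19 (SE 0.35, adjusted p = 0.000907). The stricter gate asked for more UMIs of a cell type's own markers and, in T cells, for no UMI of the C1q genes or Lyz2. It left 19 and 17 control and 25 and 11 tumor Treg, but 9 CD4 T cells in control replicate 2 and 8 CD8 T cells in tumor replicate 2. In the stricter gate the pair of Treg and CD4 was therefore without control replicate 2, and that of Treg and CD8 without tumor replicate 2. There the first difference was 1.71 and missed the threshold (adjusted p = 0.0791), and the second was kept. CD8 were lower than CD4 T cells by -0.94 (SE 0.14, adjusted p = 0.00475). The order in control skin was Treg at 33.0 ± 1.1, CD4 at 3.64 ± 0.0041, CD8 at 1.86 ± 0.42 and the ILC2 gate at 1.67 ± 0.30, the last pair overlapping. DETC had 0.18 ± 0.0031 and stood below CD8 T cells by -2.81 (SE 0.34, adjusted p = 0.000629). In tumors Treg kept the highest level at 17.2 ± 0.025, ahead of the ILC2 gate at 6.3 ± 0.65 and CD4 T cells at 6.24 ± 0.40, which overlapped, and CD8 T cells at 3.32 ± 0.33.

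In the ILC2 gate Ctla4 rose, from 1.88 and 1.46 to 6.76 and 5.84 (log2 fold change 1.71, SE 0.26, adjusted p = 0.00296). Without control replicate 2 the change was 1.35 and missed the threshold (adjusted p = 0.115). Cells of the gate without CD3 or Trac UMIs had 1.93 and 1.29 in control and 5.27 and 6.10 in tumor libraries. As with Icos, the tumor cells of this gate carried Ikzf2 at a level like that of the Treg gate, 49.8, 46.9, 49.6 and 42.8 in the 4 libraries, and the part of this in the change was not tested.

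The ratio of Ctla4 to Icos UMIs, taken within the same cells and so free of any scaling, set these shifts side by side. It was 1.09 and 1.13 in control and 1.44 and 1.28 in tumor Treg. In CD4 T cells it went from 0.129 and 0.126 to 0.944 and 0.958, and in CD8 T cells from 0.0978 and 0.122 to 1.47 and 1.20. Thus in the CD4 and CD8 T cell gates far more Icos than Ctla4 UMIs were counted in control, and in tumors about as many of each. The ratio was not retaken in CD4 cells without Ikzf2 or Il2ra UMIs. These were 39 and 25 of the 111 and 89 tumor cells of that gate. Both transcripts were seen together in 93.3% and 100% of control and 92.9% and 94.4% of tumor Treg.

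The tumor effect on these receptors differed between the T cell gates by tests of the difference itself. The effect on Ctla4 in Treg lay below that in CD4 T cells by -1.61 on the log2 scale (SE 0.26, adjusted p = 0.000671) and below that in CD8 T cells by -1.70 (SE 0.21, adjusted p = 0.000205). For Icos the effect in Treg lay above that in CD4 T cells by 0.99 (SE 0.26, adjusted p = 0.0336) and above that in CD8 T cells by 1.64 (SE 0.19, adjusted p = 0.000145), so it fell less in Treg. For Cd28 it lay above that in CD8 T cells by 1.24 (SE 0.26, adjusted p = 0.0118), and its difference of 0.92 from CD4 T cells did not pass (SE 0.32, adjusted p = 0.143) except without tumor replicate 1 (1.51, adjusted p = 0.0189). The Ctla4 calls held without any single library. The Icos call against CD4 was lost without control replicate 1 (0.90, adjusted p = 0.136), tumor replicate 1 (1.01, adjusted p = 0.279) or tumor replicate 2 (0.95, adjusted p = 0.421), and that against CD8 without control replicate 2 (1.67, adjusted p = 0.0562). The Cd28 call was lost without either control library (1.34 and 1.24, adjusted p = 0.13 and 0.233). Of all genes, 2.89% and 3.86% were called in these contrasts against CD4 and CD8 T cells. The contrasts against CD4 were not rerun in CD4 cells without Ikzf2 or Il2ra. Between CD8 and CD4 T cells no member was called, with Icos at -0.71 (adjusted p = 0.0606, and 0.0255 at -0.87 without tumor replicate 2), Cd28 at -0.42 (adjusted p = 0.425) and Ctla4 at 0.04 (adjusted p = 0.976, and -0.26 without control replicate 1), where 2.24% of all genes were called.

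**Figure D3:**
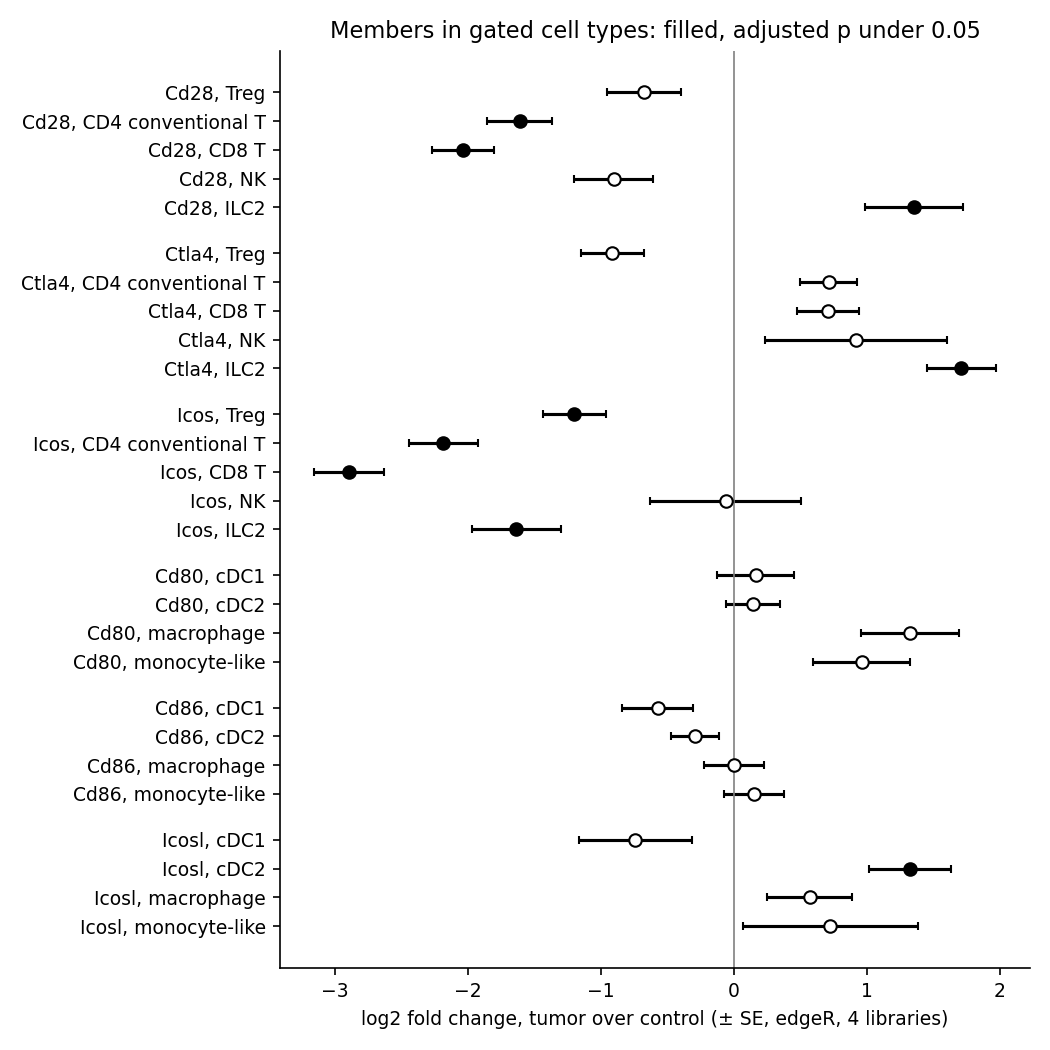
Log2 fold change of tumor over control for receptors in lymphoid gates and ligands in myeloid gates, with bars of 1 standard error over 4 libraries and filled points where the adjusted p was under 0.05. Icos lies between -2.89 and -1.20 with filled points in Treg, CD4 and CD8 T cells and the ILC2 gate and at -0.06 with an open point in NK cells, and of the ligand points only Icosl in cDC2 is filled.

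Other transcripts moved with the group in the same gates. A list of 12 immediate early and heat shock genes, added after the data were seen, which respond to handling as well as to signals, summed to 31.7 and 25.4 in control and 61.6 and 118 in tumor Treg, to 37.4 and 28.3 against 102 and 98.9 in CD4, and to 45.6 and 36.8 against 82.2 and 68.4 in CD8 T cells. The ILC2 gate had 50.6 and 38.1 against 153 and 81.7. The part of this in the receptor levels was not tested.

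The share of cells with a receptor UMI was taken after thinning every cell to 1000 UMIs, with the full-depth share beside it. Icos was seen in 88.4% and 91.4% of control and 41.4% and 41.6% of tumor CD4 T cells (at full depth 100%, 100%, 83.8% and 83.1%), and in 65.7% and 73.9% against 20.4% and 23.8% of CD8 T cells (at full depth 95.6%, 100%, 66.9% and 69.0%). Cd28 was seen in 69.6% and 77.1% against 33.3% and 31.5% of CD4 T cells (at full depth 100%, 100%, 90.1% and 82.0%). Ctla4 was seen in 17.4% and 14.3% of control and 33.3% and 38.2% of tumor CD4 T cells (at full depth 66.7%, 60%, 67.6% and 89.9%), and in 73.3% and 85.0% against 67.3% and 72.2% of Treg (at full depth 93.3%, 100%, 98.2% and 96.3%). Macrophages, which should lack it, showed Ctla4 in 1.52% and 3.05% of control and 0.428% and 7.40% of tumor cells at the same 1000 UMIs, and in 45.5%, 24.9%, 6.31% and 57.7% at full depth. The median depth was 8028 UMIs in CD4 T cells and 18574.5 in macrophages, and no share carries a test.

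Receptor transcripts also appeared in cells not known to make them, and for Ctla4 the 2 tumor libraries parted there, 1 below and 1 above both controls. Ctla4 in macrophages was 0.378 and 0.227 in control and 0.0371 and 0.619 in tumor libraries. The change was 0.01 with a standard error of 1.1 (adjusted p = 0.999), and without tumor replicate 2 it was -3.25 (adjusted p = 1.68e-05). Over all cells of tumor replicate 2, before thinning, 59.1% held a Ctla4 UMI, against 18.0% in tumor replicate 1 and 34.2% and 29.4% in controls. Ctla4 of the Treg, CD4 and CD8 T cell gates lay above the macrophage value of its own library in all 4 libraries, whereas DETC, with 0.178 and 0.182, lay below it in both controls. In cDC2, Icos was 0.362 and 0.171 in control and 0.0164 and 0.0379 in tumor libraries (log2 fold change -3.69, adjusted p = 0.0196) and Cd28 was 0.145 and 0.116 against 0.0164 and 0 (adjusted p = 0.0279). CD3 genes in the same gate were 0.09 and 0.10 against 0.02 and 0.03, capped by the gate's rule of at most 1 CD3 UMI a cell. In mast cells Icos was 3.29 and 2.11 against 0.137 and 0.270 (log2 fold change -3.39, adjusted p = 0.0322), from 26, 37, 2 and 4 UMIs. The calls in cDC2 were lost without control replicate 1 (adjusted p = 0.16 for Icos and 0.242 for Cd28) or, for Cd28, control replicate 2 (adjusted p = 0.181), and that in mast cells without control replicate 2 (adjusted p = 0.254). Of all genes, 7.28% were called in cDC2 (2.99% higher and 4.28% lower) and 1.87% in mast cells (0.935% each way).

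Among the ligands, Cd86 was the most abundant in LC, dendritic cells, macrophages and monocyte-like cells, and no change of it passed the test in the myeloid gates. LC, the dendritic-like cells of the epidermis, had 18.5 and 17.6 UMIs per 10000 in control skin. Conventional dendritic cells of type 2 (cDC2), which present mostly to CD4 T cells, had 7.03 and 7.83 in control and 7.18 and 6.70 in tumor libraries. Macrophages, the phagocytes that made up the largest tumor gate, had 6.24 and 6.09 against 6.47 and 7.51. Monocyte-like cells had 4.19 and 5.97 against 5.64 and 6.23, and conventional dendritic cells of type 1 (cDC1), which cross-present to CD8 T cells, 4.73 and 5.24 against 3.98 and 4.02. The groups overlapped in cDC2 and monocyte-like cells. The log2 fold changes were -0.29 (SE 0.18, adjusted p = 0.347) in cDC2, 0.00 (SE 0.23, adjusted p = 0.999) in macrophages, 0.15 (SE 0.23, adjusted p = 0.853) in monocyte-like cells and -0.57 (SE 0.27, adjusted p = 0.249) in cDC1. Of all genes, 1.01% were called in macrophages (0.41% higher and 0.595% lower), 0.938% in monocyte-like cells (0.469% each way) and 3.4% in cDC1 (1.15% and 2.25%).

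In the order of Cd86 levels in control skin, LC at 18.1 ± 0.62 stood above cDC2 at 7.43 ± 0.57, macrophages at 6.16 ± 0.11, monocyte-like cells at 5.08 ± 1.3 and cDC1 at 4.98 ± 0.36. LC exceeded macrophages by 1.51 on the log2 scale in the 2 control libraries (SE 0.13, adjusted p = 3.1e-06), where 42.2% of all genes were called. cDC2 and macrophages did not differ past the threshold over the 4 libraries (0.16, SE 0.12, adjusted p = 0.418), nor did macrophages and monocyte-like cells (0.19, SE 0.13, adjusted p = 0.362). cDC1 were below cDC2 by -0.75 (SE 0.15, adjusted p = 0.00962), which missed the threshold without tumor replicate 1 (-0.66, adjusted p = 0.0698). Of all genes, 19.4%, 18.4% and 19.7% were called in these 3 pairs, which were averaged over control and tumor libraries. In tumors mDC, the migrating dendritic cells with Ccr7, had 5.95 and 6.12, above cDC1 by 0.74 (SE 0.26, adjusted p = 0.0251) and not shown to differ from cDC2 (-0.10, SE 0.25, adjusted p = 0.83), where 31.7% and 21.8% of genes were called. Control mDC had 21.7 and 11.8, from only 9 and 6 cells.

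Different cells carried Cd86 in the tissues. LC held 47.2% and 39.2% of all Cd86 UMIs in control libraries and 0.06% and 0.98% in tumor libraries, while macrophages held 3.43% and 7.41% in control and 67.9% and 55.8% in tumor libraries. Over whole libraries Cd86 was at 6.44 and 6.12 in control and 5.36 and 5.12 in tumor libraries. These shares follow the numbers of cells in each gate and carry no test.

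**Figure D4:**
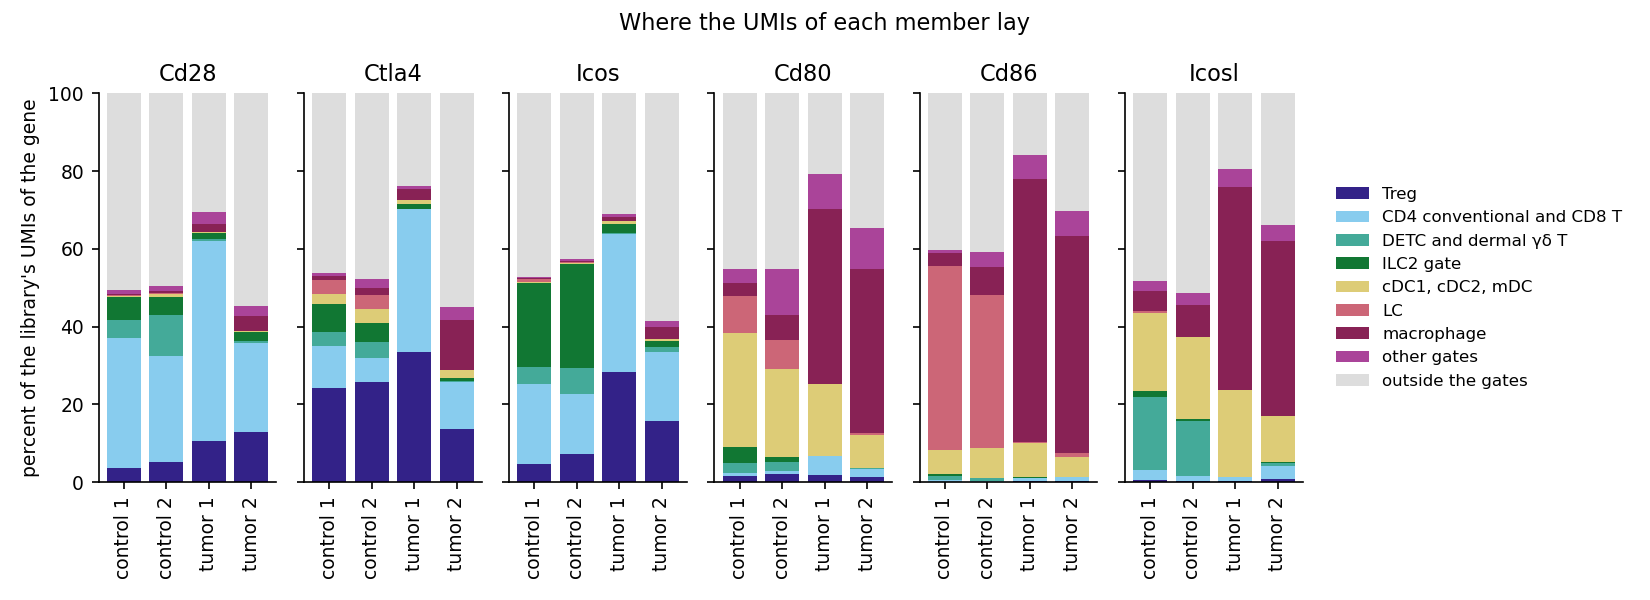
Share, in percent, of each member's UMIs held by groups of gates in each library, stacked to the whole. For Cd86 the LC part takes 47.2% and 39.2% in the control libraries and the macrophage part 67.9% and 55.8% in the tumor libraries.

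**Figure D5:**
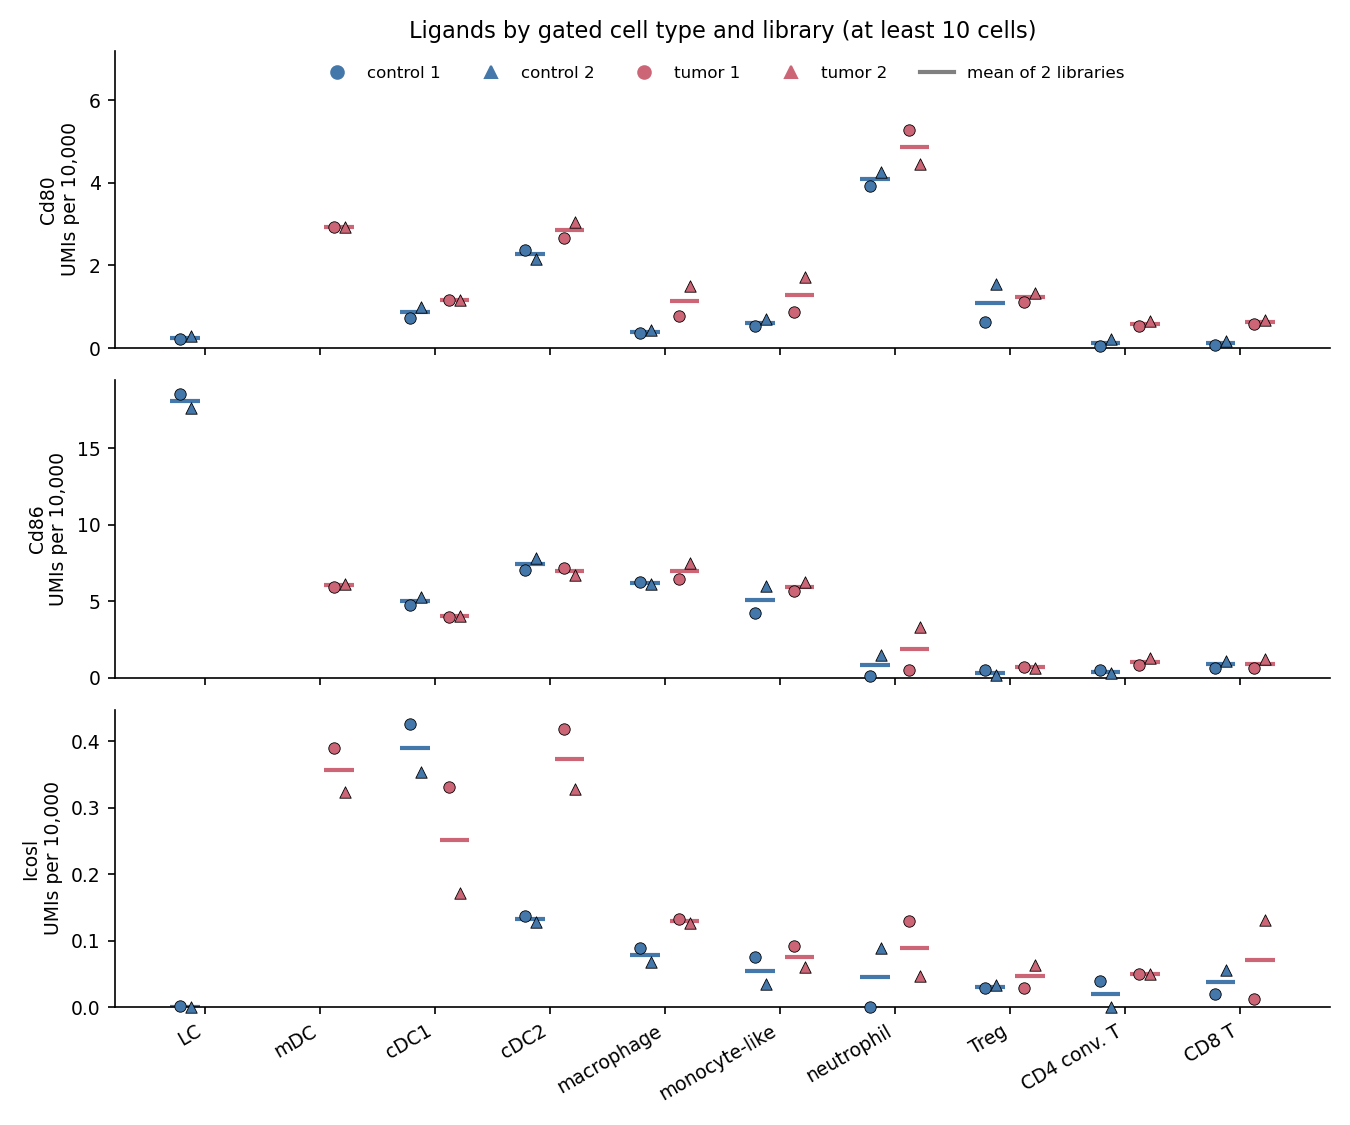
Levels of Cd80, Cd86 and Icosl by gate, in UMIs per 10000, with 1 point per library of at least 10 cells, colours and signs as for the receptors, and a bar at the mean of 2 libraries. Cd86 is highest in control LC at 18.5 and 17.6, and Cd80 in neutrophils lies between 3.93 and 5.27.

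Cd80 was highest in neutrophils, short-lived granulocytes, with 3.93 and 4.26 UMIs per 10000 in control and 5.27 and 4.44 in tumor libraries, and next in control skin in cDC2 with 2.38 and 2.15 against 2.67 and 3.06 in tumors. Neither difference passed, at 0.21 (SE 0.31, adjusted p = 0.994) and 0.15 (SE 0.20, adjusted p = 0.693) on the log2 scale. In neutrophils edgeR called 0 of 3806 genes (0%), with 172 at an unadjusted p under 0.05, and DESeq2 called 5. In macrophages Cd80 was 0.363 and 0.435 in control and 0.768 and 1.49 in tumor libraries, and in monocyte-like cells 0.530 and 0.697 against 0.862 and 1.73. Both tumor libraries lay above both controls, with tumor replicate 2 the higher, and neither change passed the test (1.32, SE 0.37, adjusted p = 0.167, and 0.96, SE 0.37, adjusted p = 0.342). The macrophage value passed without tumor replicate 1 (1.76, adjusted p = 0.000288), under DESeq2 (1.34, adjusted p = 0.0341) and without the filter on low counts (1.39, adjusted p = 4.24e-06), and the monocyte-like value without that filter (1.00, adjusted p = 0.0199). The effect on Cd80 differed between macrophages and monocyte-like cells by 0.32 (adjusted p = 0.763) and between cDC2 and macrophages by -1.07 (SE 0.31, adjusted p = 0.161), neither past the threshold, with 0.207% and 1.6% of genes called. The latter passed without tumor replicate 1 (-1.51, adjusted p = 0.00637). In cDC1 Cd80 was 0.736 and 0.995 against 1.17 and 1.15.

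Over the 4 libraries cDC2 had more Cd80 than macrophages by 1.95 on the log2 scale (SE 0.26, adjusted p = 0.0027), and cDC1 had less than cDC2 by -1.40 (SE 0.18, adjusted p = 0.00108). Macrophages and monocyte-like cells differed by -0.45 (SE 0.14, adjusted p = 0.0502). In the tumor libraries mDC had 2.92 and 2.92, above cDC1 by 1.48 (SE 0.32, adjusted p = 0.000151) and near cDC2 (0.14, SE 0.28, adjusted p = 0.782). LC, so rich in Cd86, had only 0.229 and 0.279 of Cd80, below control macrophages by -0.69 (SE 0.19, adjusted p = 0.0131). Among the myeloid gates of this paragraph and neutrophils the order of control means was neutrophils, cDC2, cDC1, monocyte-like cells, macrophages and LC. Macrophages with both Cd80 and Cd86 made up 27.3% and 26.4% of control and 44.7% and 66.0% of tumor macrophages before thinning.

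Cd80 was also counted in T cells. In CD4 T cells it was 0.0530 and 0.209 in control and 0.524 and 0.663 in tumor libraries, from 4, 7, 52 and 54 UMIs. In CD8 T cells it was 0.0726 and 0.169 against 0.574 and 0.671, from 11, 9, 250 and 36 UMIs. For the ILC2 gate it was 0.322 and 0.203 against 1.25 and 1.09, the last 2 from 24 and 21 cells. These tumor cells had a median of 4003 and 2882 UMIs, against 8414 and 9095 in control cells of the gate. Groups did not overlap, and the log2 fold changes were 2.39 (SE 0.51, adjusted p = 0.0162), 2.41 (SE 0.41, adjusted p = 0.00526) and 1.92 (SE 0.48, adjusted p = 0.0255). All 3 calls were lost without cycling cells (1.89, 1.73 and 0.95, adjusted p = 0.119, 0.155 and 0.521). In CD4 cells without any Ikzf2 or Il2ra UMI no Cd80 result was obtained, so the CD4 call was not checked there. The CD4 call was lost without control replicate 1 (1.47, adjusted p = 0.093), and that of the ILC2 gate without control replicate 1 (2.19, adjusted p = 0.453), control replicate 2 (1.46, adjusted p = 0.591) or tumor replicate 1 (1.62, adjusted p = 0.122). Among cells of the ILC2 gate without CD3 or Trac UMIs Cd80 was 0.432 and 0.146 in control, and tumor libraries gave 2 and 1 UMIs, under the floor of 3 counts, so the rise was not seen there.

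Treg held Cd80 in both tissues, at 0.619 and 1.56 in control and 1.12 and 1.33 in tumor libraries, which overlapped and had means of 1.09 and 1.23 beside 0.865 and 1.16 in cDC1 (log2 fold change 0.21, SE 0.37, adjusted p = 0.826). Over the 4 libraries Cd80 was higher in Treg than in CD4 T cells by 1.66 (SE 0.35, adjusted p = 0.0155) and than in CD8 T cells by 1.68 (SE 0.38, adjusted p = 0.0208). Leaving out either control library took both under the threshold, to 1.41 and 1.40 against CD4 (adjusted p = 0.0733 and 0.0711) and to 1.42 and 1.37 against CD8 (adjusted p = 0.0578 and 0.0634). In the stricter gate both were lost too, at 0.97 without control replicate 2 and 1.21 without tumor replicate 2, where too few CD4 or CD8 T cells were left. That gate left 19 and 17 control and 25 and 11 tumor Treg. The tumor effect on Cd80 was smaller in Treg than in CD4 T cells by -2.01 (SE 0.50, adjusted p = 0.0255) and than in CD8 T cells by -2.08 (SE 0.44, adjusted p = 0.0124). The first was lost without control replicate 1 (-1.85, adjusted p = 0.182), control replicate 2 (-2.28, adjusted p = 0.113) or tumor replicate 2 (-1.97, adjusted p = 0.0587), and the second without either control library (-2.14 and -1.92, adjusted p = 0.121 and 0.251). Macrophage transcripts were present at low levels in these gates: the C1q genes summed to 0.04 and 0.27 in control and 0.48 and 0.74 in tumor CD4 T cells, and to 0.12 and 0.04 against 0.49 and 0.80 in CD8 T cells. The same genes were at 48.8, 48.7, 80.2 and 56.2 in the macrophages of the 4 libraries, where Cd80 was at most 1.49. The T cell gates cap the C1q genes by their rule, so their low level there was set in part by the gate. The part of transcripts carried over from other cells, among them neutrophils and cDC2 with more Cd80, was not tested.

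Cd86 in CD4 T cells was 0.477 and 0.268 in control and 0.826 and 1.25 in tumor libraries (log2 fold change 1.30, SE 0.35, adjusted p = 0.0434). The call did not hold without control replicate 2 (0.94, adjusted p = 0.148), without tumor replicate 2 (0.96, adjusted p = 0.0799) or in CD4 cells without Ikzf2 or Il2ra (1.28, adjusted p = 0.13). In Treg it was 0.478 and 0.169 against 0.664 and 0.654 (1.00, SE 0.44, adjusted p = 0.241).

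Icosl was the scarcest member. In cDC1 it was 0.426 and 0.354 in control and 0.331 and 0.172 in tumor libraries, and in cDC2 0.137 and 0.128 against 0.419 and 0.329. Icosl rose in cDC2 (log2 fold change 1.33, SE 0.31, adjusted p = 0.0462, from 17, 21, 102 and 26 UMIs) and did not pass in cDC1 (-0.74, SE 0.42, adjusted p = 0.339). The difference between these effects, -2.11, did not pass its own test (SE 0.51, adjusted p = 0.105), where 0.465% of genes were called. The cDC2 call was lost without control replicate 1 (1.34, adjusted p = 0.224), control replicate 2 (1.25, adjusted p = 0.201) or tumor replicate 1 (1.15, adjusted p = 0.126), with the replicate number as a block (1.30, adjusted p = 0.0559), under DESeq2 (1.28, adjusted p = 0.286), in the stricter gate (1.06, adjusted p = 0.104) and without cycling cells (1.61, adjusted p = 0.079). Macrophages had 0.0889 and 0.0682 against 0.133 and 0.126 (0.57, SE 0.32, adjusted p = 0.51), and were below cDC2 over the 4 libraries by 1.29 on the log2 scale (SE 0.23, adjusted p = 0.00878). That pair missed the threshold without tumor replicate 1 (1.06, adjusted p = 0.0612). Tumor mDC had 0.391 and 0.324, not shown to differ from cDC2 (0.06, SE 0.42, adjusted p = 0.945). LC gave 1 and 0 Icosl UMIs in the control libraries. This was below macrophages of the 2 control libraries by -6.17 on the log2 scale (SE 0.87, adjusted p = 0.000154 by edgeR), where 42.2% of all genes were called. No T cell gate had enough Icosl for a test.

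Genes that work with the family were read from 5 lists. Of all genes tested, the shares called higher and lower in tumors were 2.98% and 2.17% in Treg and 5.79% and 4.5% in CD4. They were 4.73% and 6.1% in CD8 T cells and 6.32% and 6.53% in the ILC2 gate. NK cells had 0.874% and 0.81%, cDC1 1.15% and 2.25% and cDC2 2.99% and 4.28%. Macrophages had 0.41% and 0.595% and monocyte-like cells 0.469% each way. CD28 signalling holds 21 genes from the kinases at the receptor to NF-κB, NFAT and interleukin 2. In CD8 T cells 0 of the 21 rose and 7 fell, with a median log2 fold change of -0.72 against 0.07 for all genes. Named by size, they were led by Il2, the growth factor that CD28 signals raise (0.429 and 0.357 against 0.0321 and 0.0745, log2 fold change -3.42, adjusted p = 0.00237), the transcription factor Nfatc2 (-1.72, adjusted p = 0.00359) and the PI3-kinase subunit Pik3r1 (-1.52, adjusted p = 0.0071). In CD4 T cells 0 rose and 3 fell of 21, with a median of -0.48 against 0.04, namely Pik3r1 (6.50 and 5.84 against 1.32 and 1.14, log2 fold change -2.39, adjusted p = 0.000583), Nfatc2 (-1.27, adjusted p = 0.00987) and the paracaspase Malt1 (-1.22, adjusted p = 0.0109). In Treg 1 of 20 tested fell, Malt1 (8.07 and 8.20 against 2.73 and 2.87, log2 fold change -1.52, adjusted p = 0.00347), and the median of -0.06 lay near the 0.01 of all genes. The ILC2 gate went the other way with 4 of 21 higher and 0 lower, among them the T cell kinases Lck (1.42, adjusted p = 0.0445) and Prkcq (1.52, adjusted p = 0.0263). Of its 24 and 21 tumor cells 8 and 14 held no CD3 or Trac UMI, and of its 207 and 141 control cells 122 and 99. The part of gate content in these changes, and in those of this gate in the lists below, was not tested. The Il2 call was lost without control replicate 1 (-3.09, adjusted p = 0.181). Those of Lck and Prkcq were lost without control replicate 2 (0.84 and 1.18, adjusted p = 0.431 and 0.236) or tumor replicate 1 (0.67 and 0.52, adjusted p = 0.463 and 0.549), and that of Prkcq also without control replicate 1 (1.52, adjusted p = 0.116).

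Of the 6 genes tied to CTLA-4 trafficking, Trat1, an adaptor that helps carry CTLA-4 to the surface, fell in CD4 (14.3 and 12.6 against 1.40 and 1.53, log2 fold change -3.26, adjusted p = 0.00029), CD8 (12.5 and 8.35 against 0.447 and 0.261, -4.90, adjusted p = 7.94e-05) and NK cells (3.13 and 0.949 against 0.120 and 0, adjusted p = 0.00588). Lrba, which protects CTLA-4 from breakdown, rose in CD4 T cells (1.18, adjusted p = 0.0136) and in the ILC2 gate (1.86, adjusted p = 0.00415). The latter call was lost without control replicate 2 (1.59, adjusted p = 0.059) or tumor replicate 1 (1.09, adjusted p = 0.0534), and that of Trat1 in NK cells under DESeq2 (adjusted p = 0.282). In Treg 0 of 5 tested passed. In all, 1 rose and 1 fell in CD4, 0 and 1 in CD8, 0 and 1 in NK cells, 2 and 0 in the ILC2 gate and 1 and 1 in cDC2.

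Among 8 other CD28 and B7 family genes, Pdcd1, which encodes the inhibitory receptor PD-1, rose in every αβ T cell gate. It was 0.422 and 0.169 in control and 0.879 and 1.46 in tumor Treg (log2 fold change 1.92, adjusted p = 0.0332), 0.503 and 0.953 against 2.07 and 2.90 in CD4 (1.79, adjusted p = 0.00611) and 0.733 and 1.37 against 3.18 and 2.94 in CD8 T cells (1.47, adjusted p = 0.00899). Btla, another inhibitory receptor, rose in Treg (0.0843 and 0.102 against 0.654 and 1.06, log2 fold change 3.16, adjusted p = 0.00639) and in cDC2 (1.80, adjusted p = 0.0156), and fell in CD8 T cells (-1.26, adjusted p = 0.0483). The ligands of PD-1 rose in myeloid gates, with Pdcd1lg2 at 0.0775 and 0.133 against 1.27 and 1.18 in cDC1 (3.23, adjusted p = 0.00964) and 0.333 and 0.182 against 1.06 and 1.52 in macrophages (2.21, adjusted p = 0.0461), and Cd274 at 1.31 and 2.19 against 5.54 and 5.70 in monocyte-like cells (1.58, adjusted p = 0.039). Each was the only member of its list called in that gate. Without control replicate 2 the call of Pdcd1 in Treg was lost (1.44, adjusted p = 0.139), as it was under DESeq2 (adjusted p = 0.101). Without control replicate 1 that of Pdcd1lg2 in cDC1 was lost (3.0, adjusted p = 0.0757), and without either control library those of Btla in cDC2 (1.90 and 1.64, adjusted p = 0.0967 and 0.0881), Pdcd1lg2 in macrophages (2.65 and 1.79, adjusted p = 0.158 and 0.256) and Cd274 (1.28 and 2.06, adjusted p = 0.229 and 0.182), the last also without tumor replicate 1 (1.61, adjusted p = 0.292).

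Of the 7 genes of antigen-presenting cell activation, Ciita, the master regulator of MHC class II, rose in cDC2 (1.45 and 1.55 against 4.02 and 3.11, log2 fold change 1.06, adjusted p = 0.029) as 1 of 6 tested there, and 0 of 6 tested passed in macrophages. Cd83, an activation marker, rose in CD4 T cells (2.07, adjusted p = 0.0329). Of the 6 genes of T cell help, Cd40lg, the helper signal to CD40, fell in CD8 (1.04 and 0.751 against 0.0275 and 0.0559, log2 fold change -4.94, adjusted p = 0.000236) and CD4 T cells (-1.07, adjusted p = 0.0162) and rose in the ILC2 gate (0.136 and 0.164 against 1.25 and 2.04, 3.21, adjusted p = 0.0023). Tnfrsf4, the costimulatory receptor OX40, rose in CD8 T cells (2.17, adjusted p = 0.00802) and in the ILC2 gate (2.12, adjusted p = 0.0102). Il2ra, the high-affinity part of the interleukin 2 receptor, fell in Treg (15.1 and 12.1 against 4.45 and 4.87, log2 fold change -1.52, adjusted p = 0.00485) and NK cells (-3.78, adjusted p = 0.00155). The call of Cd83 was lost without control replicate 2 (1.71, adjusted p = 0.0676) or tumor replicate 2 (1.11, adjusted p = 0.0549), that of Il2ra in Treg without control replicate 1 (-1.39, adjusted p = 0.0542) and that of Tnfrsf4 in CD8 T cells without control replicate 1 (1.43, adjusted p = 0.0621). Tnfrsf4 in the ILC2 gate was lost without control replicate 2 (1.71, adjusted p = 0.0927) or tumor replicate 1 (1.21, adjusted p = 0.215). Il21 was called in CD4 T cells, where it was listed at 0 in both controls and at 0.312 and 0.160 in tumor libraries.

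In cDC2 the called genes included the T cell genes Lck (0.0724 and 0.0732 against 0.00411 and 0.0126) and Trat1 (0.105 and 0.146 against 0 in both). The gate's rule caps the CD3 genes, so they set no level for carried-over T cell transcripts there. In cDC1 the 2 genes of the signalling list that fell were Malt1 (-1.39, adjusted p = 0.0379) and Fyn (-1.37, adjusted p = 0.0499), both lost without any 1 of the 4 libraries, at values of -1.50 to -1.28 and -1.58 to -1.13. The call of Trat1 in cDC2 was lost without control replicate 1 (adjusted p = 0.111). In NK cells, where 1.68% of all genes were called (0.874% higher and 0.81% lower), Prkcq rose (0.482 and 0.502 against 1.79 and 1.67, log2 fold change 1.83, adjusted p = 0.0165, and 0.102 under DESeq2), and no member was called.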

How the data were processed

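CD45+, DAPI-negative cells of 2 control and 2 tumor libraries were measured with 10x Genomics 3′ chemistry. The authors deposited raw counts of UMIs per gene and cell, made with Cell Ranger on mm10. The version is 7.1.0 in the submitters' notes and 7.0.1 in the file headers. From these, a cell was kept if it had 100 genes or more, a total of 1000 UMIs or more, no more than 15% of UMIs from mitochondrial genes, and log10 of its genes divided by log10 of its UMIs came to 0.8 or above. Doublets were scored against simulated ones, and the top 1% per 1000 cells, 89, 95, 229 and 40 cells, were removed. Libraries shared 1 to 7 cell barcodes a pair. Gates used 88 marker genes, with thresholds set after marker counts, but not member counts, were seen. In Treg, 90 of 252 cells rested on 1 Foxp3 UMI, and in CD4 T cells 93 of 304 on 1 Cd4 UMI. Members and gene lists were chosen with earlier results of these data known. Counts were summed per gate and library where at least 10 cells were present, filtered by filterByExpr, normalized by TMM and tested with edgeR 4.0.16. Pairs of gates were tested with the library as a block, averaging control and tumor libraries where both had enough cells, and differences of tumor effects as an interaction. DESeq2 1.42.0 was an alternative. Other alternatives were size factors (RLE), total UMIs, no filter, doublets kept, a stricter gate, no cycling cells, a replicate block and leaving out each library. The tests were first checked on simulated counts, with 200 genes changed by 2 on the log2 scale. Between groups 34.5% of these were recovered in neutrophils, 42.5% in mast cells and 45.5% in the ILC2 gate. The other gates tested gave 67% in macrophages to 83% in NK cells. False calls ran from 0 in neutrophils to 21 in cDC2, with 9 in mast cells. As a share of the simulated calls they exceeded 0.05 in CD4 T, NK, cDC1, cDC2, macrophage, monocyte-like and mast cell gates. In these gates an adjusted p just under 0.05 may thus not hold that rate. The share stayed under 0.05 in the other gates tested. Named genes were all members and, of each gate's listed genes past the threshold, up to 6 by size of change. Counting error alone underlies shares of cells. The motifs were searched in RefSeq promoters. No columns of other series were present. One allele of the tumor line and a few results on genes outside the 6 members are not reported here.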

Additional observations from a re-analysis of the deposited data

Results flagged for a closer look

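The effect of the tumor on 4 members differed between Treg and other T cells by the interaction test in edgeR, with the library as a block and p-values adjusted over all genes. The Treg effect minus that in CD4 conventional T cells was -1.61 on the log2 scale for Ctla4 (adjusted p = 0.000671), 0.99 for Icos (adjusted p = 0.0336) and -2.01 for Cd80 (adjusted p = 0.0255). The Treg effect minus that in CD8 T cells was 1.24 for Cd28 (adjusted p = 0.0118), -1.70 for Ctla4 (adjusted p = 0.000205), 1.64 for Icos (adjusted p = 0.000145) and -2.08 for Cd80 (adjusted p = 0.0124). Of all genes, 2.89% were called in the contrast with CD4 and 3.86% in that with CD8 T cells. The contrast with CD4 was not rerun in CD4 cells without Ikzf2 or Il2ra. Only the Ctla4 calls held whichever single library was left out. Ctla4 was lower in tumor than control Treg in 2 of 2 libraries and higher in 2 of 2 libraries in CD4 and CD8 T cells. Icos was lower in 2 of 2 tumor libraries in all 3 gates and its fall was smaller in Treg. The Foxp3 level of the Treg gate and the Ikzf2 level of the CD4 gate moved with the group too, from 4.89 and 4.47 to 3.15 and 2.91 and from 1.28 and 0.89 to 7.77 and 7.0, and their part in these differences was not tested.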

How the results depend on the processing

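Of 407 alternative values of the 35 tumor to control values of members, 343 kept their direction and their side of the threshold, 37 lost the call, 15 gained it and 12 changed sign. Of 172 alternative values of 29 differences between gates 156 were kept, of 94 of 15 differences of tumor effects 79, and of 216 of 37 named pathway genes 169; 47 of the last lost the call and none changed sign. Leaving out libraries was added after the data were seen for pathway genes and for differences of tumor effects. The replicate numbers gave 2 pairs whose deviations correlated at -0.082 to 0.211 over genes. This cannot show whether libraries of the same number were handled together. With the replicate block 31 of 35 member values kept direction and side. Tumor against control in mDC and interactions with mDC were not run, since control mDC numbered 9 and 6 cells. The stricter gate left under 10 CD4 T, CD8 T, NK and ILC2 gate cells in at least 1 library. Tumor against control was therefore not tested for these cells in the stricter gate (pairs of gates used the libraries with 10 cells or more). Neither was it tested in the ILC2 gate without T cell receptor genes, an alternative added after the data were seen. In leave-one-out fits the lone library of a group is assumed to vary like the other group. Without thinning, the share of cells with a UMI was higher in all 19 cases, and keeping doublets moved 15 of 40 shares of UMIs past their binomial interval. Depth and cell number limit what could be called, most of all in gates and libraries with few cells. The causes of the shifts given here were not tested.

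With all libraries and the settings of the report, the genes edgeR called tumor against control numbered 290 in Treg, 759 in CD4, 857 in CD8, 79 in NK cells, 856 in the ILC2 gate, 236 in cDC1, 610 in cDC2, 120 in macrophages, 76 in monocyte-like cells, 0 in neutrophils and 48 in mast cells. In neutrophils 172 genes had an unadjusted p under 0.05. Under DESeq2 the genes called numbered 133 in Treg, 394 in CD4, 509 in CD8, 473 in macrophages, 134 in monocyte-like cells and 5 in neutrophils. The listed pathway genes called numbered 1 in NK cells and 5 in macrophages. The call was lost for Cd80 in CD4 (2.27), Cd86 in CD4 (1.32), Cd28 in the ILC2 gate (1.26), Cd28 in cDC2 (-3.83), Icosl in cDC2 (1.28), Cd86 in mDC against cDC1 (0.77) and Cd80 in LC against macrophages (-0.65). With RLE size factors the call was lost for Cd86 in CD4 (1.27) and the sign changed for Cd86 in macrophages (-0.00755). Without the filter on low counts the genes called numbered 617 in Treg, 1187 in CD4, 1318 in CD8, 250 in NK cells, 1296 in the ILC2 gate, 835 in cDC1, 1572 in cDC2, 1038 in macrophages, 508 in monocyte-like cells and 252 in mast cells. The listed pathway genes called numbered 7 in Treg, 5 in NK cells, 7 in cDC1, 14 in cDC2, 7 in macrophages, 7 in monocyte-like cells and 2 in mast cells. With the replicate number as a block the genes called numbered 657 in cDC1, 3 in neutrophils and 118 in mast cells. The call was lost for Icosl in cDC2 (1.30) and the sign changed for Ctla4 in macrophages (-1.01) and Cd86 in macrophages (-0.00626). With high doublet scores kept the genes called numbered 192 in macrophages and 4 in neutrophils. The call was lost for Cd86 in CD4 (1.29). In the stricter gate the genes called numbered 44 in Treg. The call was lost for Icosl in cDC2 (1.06), Ctla4 in Treg against CD4 (1.71), Cd80 in Treg against CD4 (0.97), Icos in CD8 against CD4 (-0.69), Cd80 in Treg against CD8 (1.21) and Cd86 in cDC1 against cDC2 (-0.59) and the sign changed for Ctla4 in macrophages (-0.048). Without cycling cells the genes called numbered 146 in Treg, 406 in CD4, 363 in CD8, 10 in NK cells, 428 in the ILC2 gate and 38 in monocyte-like cells. The call was lost for Icos in Treg (-0.95), Cd80 in CD4 (1.89), Cd80 in CD8 (1.73), Cd28 in the ILC2 gate (1.17), Cd80 in the ILC2 gate (0.95), Cd28 in cDC2 (-2.75), Icosl in cDC2 (1.61) and Icos in mast cells (-4.95) and the sign changed for Ctla4 in macrophages (-0.0347). In the CD4 gate without Ikzf2 or Il2ra the genes called numbered 216 in CD4. The call was lost for Cd86 in CD4 (1.28). Calls were gained for Ctla4 in Treg (-0.94), Cd80 in macrophages (1.34) and Cd80 in macrophages against monocyte-like cells (-0.45) under DESeq2, for Ctla4 in Treg (-0.94), Ctla4 in CD4 (0.78) and Ctla4 in CD8 (0.84) with total UMIs as the only scaling, for Ctla4 in Treg (-0.91), Cd80 in macrophages (1.39) and Cd80 in monocyte-like cells (1.00) without the filter on low counts, for Ctla4 in Treg (-0.91) with the replicate number as a block and for Ctla4 in CD8 (1.21) without cycling cells.

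Leaving out each library in turn moved the genes called to 111 to 446 in Treg, 387 to 1902 in CD8, 95 to 231 in NK cells, 294 to 1148 in the ILC2 gate, 4 to 538 in cDC1, 65 to 1504 in cDC2, 1 to 892 in macrophages, 0 to 422 in monocyte-like cells, 0 to 82 in neutrophils and 0 to 288 in mast cells. It moved the listed pathway genes called to 7 to 21 in CD8, 3 to 7 in NK cells, 1 to 12 in the ILC2 gate, 0 to 4 in cDC1, 1 to 13 in cDC2, 0 to 5 in macrophages, 0 to 3 in monocyte-like cells, 0 to 4 in neutrophils and 0 to 2 in mast cells. Tumor to control log2 values whose call or sign changed, with the library left out in parentheses, ranged over -1.29 to -1.10 for Icos in Treg (lost without control 1 and control 2), -0.37 to 0.98 for Cd80 in Treg (other sign without control 1), 1.47 to 3.27 for Cd80 in CD4 (lost without control 1), 0.94 to 1.92 for Cd86 in CD4 (lost without control 2 and tumor 2), 0.77 to 1.86 for Cd28 in the ILC2 gate (lost without control 2 and tumor 2), 1.35 to 1.79 for Ctla4 in the ILC2 gate (lost without control 2), -2.07 to -1.54 for Icos in the ILC2 gate (lost without control 1), 1.46 to 2.19 for Cd80 in the ILC2 gate (lost without control 1, control 2 and tumor 1), -7.03 to -3.15 for Cd28 in cDC2 (lost without control 1 and control 2), -4.16 to -2.91 for Icos in cDC2 (lost without control 1), 1.15 to 1.43 for Icosl in cDC2 (lost without control 1, control 2 and tumor 1), -1.08e-05 to 0.27 for Cd80 in cDC2 (other sign without tumor 2), -3.25 to 0.96 for Ctla4 in macrophages (other sign without control 2 and tumor 2), -0.19 to 0.16 for Cd86 in macrophages (other sign without control 2 and tumor 2), -0.0869 to 0.46 for Cd86 in monocyte-like cells (other sign without control 1) and -3.77 to -3.09 for Icos in mast cells (lost without control 2). Log2 differences between gates ranged over 1.40 to 2.02 for Cd80 in Treg against CD4 (lost without control 1 and control 2), 1.17 to 1.80 for Icos in Treg against CD8 (lost without tumor 2), 1.37 to 2.14 for Cd80 in Treg against CD8 (lost without control 1 and control 2), 1.06 to 1.41 for Icosl in cDC2 against macrophages (lost without tumor 1) and -0.82 to -0.66 for Cd86 in cDC1 against cDC2 (lost without tumor 1). Differences of tumor effects ranged over 0.90 to 1.08 for Icos in Treg against CD4 (lost without control 1, tumor 1 and tumor 2), -2.28 to -1.85 for Cd80 in Treg against CD4 (lost without control 1, control 2 and tumor 2), -0.26 to 0.27 for Ctla4 in CD8 against CD4 (other sign without control 1), 1.07 to 1.64 for Cd28 in Treg against CD8 (lost without control 1 and control 2), 1.54 to 1.89 for Icos in Treg against CD8 (lost without control 2) and -2.14 to -1.92 for Cd80 in Treg against CD8 (lost without control 1 and control 2).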

Other observations

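Levels of the 3 receptors ran together over the 49 sums of gate and library with at least 20 cells. As a description over sums that share libraries and depth, Pearson's r of log levels was 0.89 between Cd28 and Icos, 0.81 between Cd28 and Ctla4 and 0.79 between Ctla4 and Icos. The genes with the pattern most like Cd28 were Grap (r = 0.93), Cd6 (0.92) and Camk4 (0.92). For Icos they were Slamf1 (0.93), Grap (0.92) and Ikzf3 (0.92), and for Ctla4 Gm20275 (0.91), Cd5 (0.88) and Cd6 (0.88). For the ligands they included Cd74 (0.90) and Tbc1d9 (0.90) with Cd86, and were Nampt (0.82), Alcam (0.79) and Pmaip1 (0.79) with Cd80, and Htr7 (0.78), Slc25a20 (0.77) and Klri1 (0.75) with Icosl.

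The shares of each transcript held by the gates are given here without a test. The ILC2 gate held 21.5% and 26.8% of all Icos UMIs in control and 2.47% and 1.49% in tumor libraries, while Treg held 4.70% and 7.12% against 28.2% and 15.8%. Treg held 24.1% and 25.7% of Ctla4 UMIs in control and 33.5% and 13.6% in tumor libraries. Macrophages held 3.25% and 6.44% of Cd80 UMIs and 5.13% and 8.11% of Icosl UMIs in control, against 45.2% and 42.2% and 52.1% and 45.0% in tumor libraries. Over whole libraries Icos was at 5.86 and 2.99 UMIs per 10000 in control and 0.660 and 1.25 in tumor libraries, and Cd80 at 0.397 and 0.503 against 0.957 and 1.35.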
